A study of Mus musculus with 4 samples.

Results

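Principal 12 was a population of principal cells, the main columnar cell of the male excurrent ducts, that the authors' deposited annotation of clustered single cells places in the vas deferens. It held 346 of 8880 cells. Of these, 342 came from the vas deferens library, 3 from the cauda library and 1 from the caput library, so 98.8% were vas deferens cells. The cells came from adult male FVB/NJ mice of 10 to 12 weeks with no treatment or engineered allele. The ducts of 4 animals gave 8 pieces for each of 4 segments (caput, corpus and cauda epididymis and vas deferens), and the 8 pieces of a segment were pooled, dissociated with collagenase and trypsin, and made into 1 library of 3′ tags. Each region was therefore 1 library of pooled animals, region and library cannot be told apart, and no comparison had replicates. No p-value is given for any of them, and the intervals below are 95% intervals that cover counting error only.

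The vas deferens is the muscular tube that carries sperm from the cauda epididymis to the urethra. Its principal cells face the lumen with tall microvilli, take up and secrete water, ions and proteins, and depend on androgens for much of their gene expression. They are known for the aldo-keto reductase that was first described as the major protein of the mouse vas deferens, Akr1b7. Metallothioneins are small proteins that bind zinc and copper. Prostaglandins are lipid signals that cyclooxygenases begin to make and that a dehydrogenase and a reductase break down.

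The bases before the start of 2 genes are shown because the account turns on these genes: Akr1b7 carries the label of the population, and Mt2 had the largest ratio to the other vas deferens principal cells among the 15 genes with the highest levels. Both are the 250 bases before the gene's first base in RefSeq (assembly GRCm38.p6, the build of the deposited files), 5′ to 3′ on the plus strand. For Akr1b7 this is chr6:34412112-34412361 and the capitals mark TGTTCT, the hexamer that androgen and glucocorticoid receptors bind. For Mt2 this is chr8:94172368-94172617 and the capitals mark matches on either strand to the core of the metal response element, spelled TGCACNC or TGCGCNC.
Akr1b7: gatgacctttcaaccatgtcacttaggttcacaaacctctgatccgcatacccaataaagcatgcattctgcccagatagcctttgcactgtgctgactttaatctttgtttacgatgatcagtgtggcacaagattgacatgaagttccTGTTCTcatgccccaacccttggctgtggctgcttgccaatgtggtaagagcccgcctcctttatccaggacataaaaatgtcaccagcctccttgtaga
Mt2: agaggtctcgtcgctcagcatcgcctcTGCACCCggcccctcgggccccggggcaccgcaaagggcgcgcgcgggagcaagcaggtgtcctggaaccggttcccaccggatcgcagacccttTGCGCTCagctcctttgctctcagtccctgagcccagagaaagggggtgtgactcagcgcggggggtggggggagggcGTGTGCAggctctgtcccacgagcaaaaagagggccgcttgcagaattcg
The Mt2 stretch held 3 matches to the metal response core, which did not overlap. The stretch listed for Mt1 held 1 match; it is not printed because its end and the start of Mt1 in the gene table differ. Of 32851 promoter stretches of this length, 21.4% held at least 1 match and 1.26% held 3 or more. The Akr1b7 stretch held 1 match to TGTTCT, and 16.1% of all stretches held at least 1. A match of letters describes the stretch and does not show that a factor bound it.

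The markers of the label were checked first. Levels are given as UMIs (unique molecular identifiers, the counted molecules) per 1e+06 UMIs of a population, abbreviated UPM. Each molecule was counted by a tag at its 3′ end, so this level does not grow with the length of the gene. Across all 346 cells, Akr1b7 (chromosome 6, 34412362 to 34423137) was at 32958 UPM, Abcg2, an efflux transporter of the apical membrane (chromosome 6, 58584491 to 58692451), at 2879 UPM, and Aqp2, a water channel (chromosome 15, 99579056 to 99584545), at 2685 UPM. Among the 34 annotated populations of all cell types, principal 12 was in rank 4 for each of these genes. The 3 populations above it were principal 13, 14 and 15, in which 99% to 100% of cells were from the vas deferens library. The next population, principal 11, with 41.0% vas deferens cells, had 3780 UPM of Akr1b7, 1113 UPM of Abcg2 and 437 UPM of Aqp2. The markers thus placed principal 12 among the vas deferens principal cells, and at the low end of them.

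**Figure D1:**
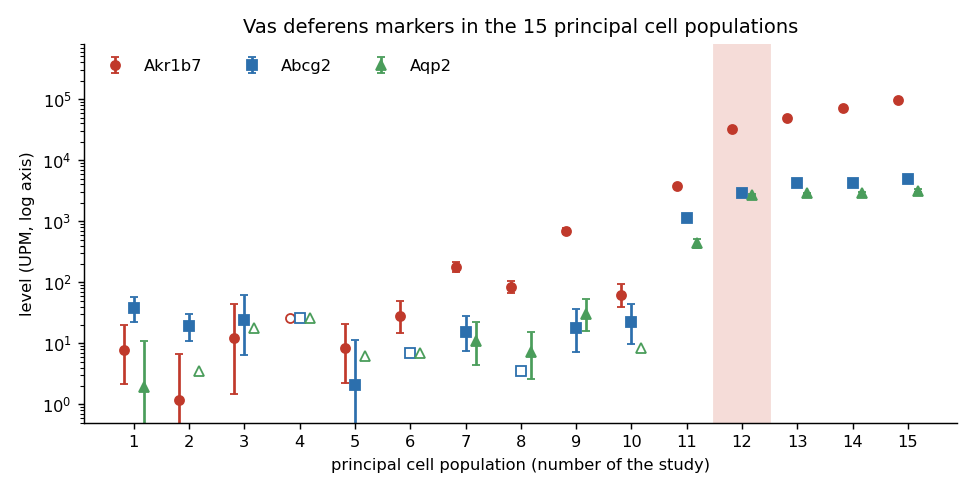
Levels of Akr1b7, Abcg2 and Aqp2 in the 15 principal cell populations, in UPM on a log axis, with 95% counting intervals. Principal 12 to 15 stand above the other 11 for each gene, and principal 12 is the lowest of these 4.

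Depth differed between the populations. From here on only the cells of the vas deferens library are compared, since they share a dissociation and a library: 342 cells of principal 12 with 1724930 UMIs, and 867 cells of the other 3 populations with 2681961 UMIs (396 of principal 13, 139 of principal 14 and 332 of principal 15). A principal 12 cell had a median of 2402.5 UMIs and 898.5 genes, against 1498 and 676.5 in principal 13, 1474 and 703 in principal 14, and 933 and 438.5 in principal 15. The authors' removal of ambient RNA took 1.68% of UMIs from principal 12 and 2.45% to 3.46% from the other 3. Over all 4 libraries there were 26639701 UMIs, from 4408989 to 10744928 a library. Of all cells, 86 carried a barcode that occurred in 2 libraries, 5 of them in principal 12 and 4 in the other 3. A doublet score computed here called 14 principal 12 cells (4.09%), and 16, 6 and 6 cells of principal 13, 14 and 15. The number called in each library was set by an assumed rate. In the vas deferens library the score recovered 63.9% of simulated pairs of cells from different clusters.

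To compare shares of cells at the same depth, each cell was thinned to 1000 UMIs, which left out 108 principal 12 cells with fewer. Akr1b7 was then found in all 234 principal 12 cells, and in all 484 cells of the other 3. Abcg2 was found in 76.5% of principal 12 cells (70.5% to 81.8%), against 86.8% in principal 13, 94.4% in principal 14 and 93.7% in principal 15. Aqp2 was found in 62.8%, against 63.4%, 68.9% and 74.2%. Immune cells of the same library, which should lack these genes and had a median depth of 2368 UMIs, held Akr1b7 in 18.7% of cells, Aqp2 in 2.20% and Abcg2 in 0 of 91, where 3 cells would be 3.30% and the exact interval reaches 3.97%. Basal cells of the library, with a median of 3647 UMIs, held Akr1b7 in 30.0%, Abcg2 in 3.21% and Aqp2 in 1.46%. Without thinning, 68.1% of principal 12 cells had a UMI of Abcg2.

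Between principal 12 and the other 3 vas deferens populations most genes were alike in level. The authors clustered the cells on these very counts, so the differences describe how the cells were grouped and are no test of it. Of 7970 genes with at least 20 UMIs on the higher side, 7587 were within 2-fold, 47 were at least 2-fold higher in principal 12 (0.59% of those compared) and 336 were at least 2-fold lower (4.22%). The counting interval left out 1 for all 47 higher genes and for 274 of the 336 lower ones, and it lay wholly beyond 2-fold for 2 and 32. For the higher genes, leaving out 1 was fixed by the call rule and is no support. At these UMI totals, 20 UMIs and a 2-fold ratio already put the interval above 1. The pool held more UMIs than principal 12, so the minimum of 20 UMIs reached genes of lower level on the lower side, where counting error alone also makes more calls, and the excess of lower genes is not read as a result. The split moved with the denominator: with the ribosomal protein genes left out of it, 71 were higher and 248 lower, and without principal 13 in the pool, 208 were higher and 252 lower. The median log2 ratio over all 7970 genes was -0.07, so every ratio below is read against a centre slightly under 1. Counts of list members below stand beside the 0.59% higher and 4.22% lower over all genes.

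**Figure D2:**
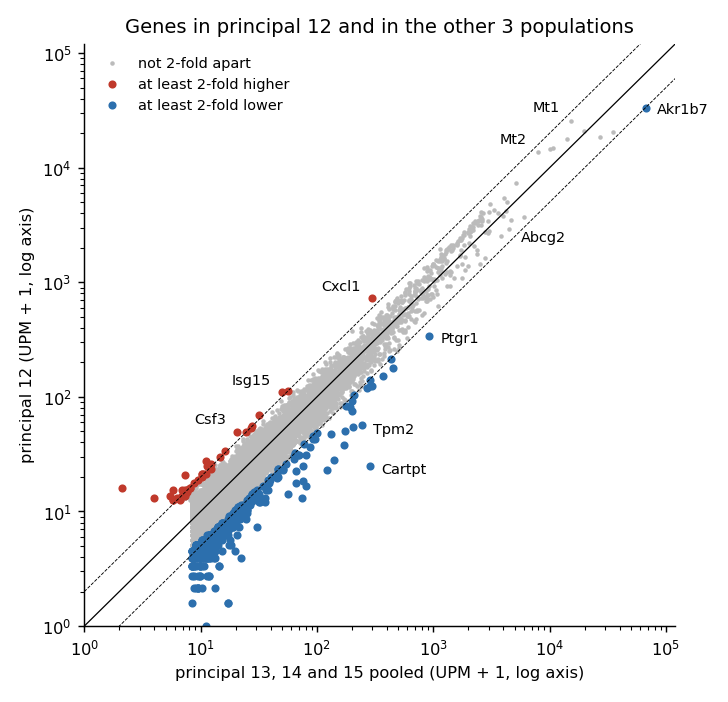
Level of each gene in principal 12 against its level in principal 13, 14 and 15 pooled, as UPM + 1 on log axes. Most points lie within 2-fold of equality, with 336 genes at least 2-fold lower in principal 12 and 47 at least 2-fold higher.

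The aldo-keto reductases, enzymes that reduce aldehydes and ketones, were lower in principal 12, and Akr1b7 among them differed from each of the other 3 populations. It was at 33001 UPM in principal 12 (32731 to 33274), 49845 in principal 13, 70894 in principal 14 and 96185 in principal 15. The pooled level of the 3 was 2.05-fold higher (2.03 to 2.07), and the 4 populations had no overlapping intervals. Akr1b10, a close paralogue, was at 48.1 UPM in principal 12 against 86.5 in the other 3. Reads that map to several places were not counted, so levels of such near copies are uncertain. Of the 7 reductases compared, 2 were lower (4.22% over all genes), 0 were higher and all 7 had a ratio under 1. Per cell the picture was graded: among cells with at least 1000 UMIs, Akr1b7 took a median of 3.49% of the UMIs of a principal 12 cell, 5.07% in principal 13, 7.39% in principal 14 and 9.43% in principal 15. The middle 80% of principal 12 cells lay between 1.93% and 5.42%, a range that overlaps that of principal 13 (3.27% to 7.16%) and lies below that of principal 14 (5.84% to 9.29%).

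Over the prostaglandin pathway list, 2 of 13 compared genes were lower and 0 were higher (4.22% and 0.59% over all genes). The summed ratio was 0.780 (0.763 to 0.797). Ptgs2, the inducible cyclooxygenase, was at 2794 UPM in principal 12 against 3008 in the other 3, and Ptges, which makes prostaglandin E, was at 1433 against 1779. Slco2a1, a prostaglandin transporter, was at 645 UPM in both. Hpgd, the dehydrogenase that inactivates prostaglandins, was 1.77-fold lower, at 618 against 1093 UPM. Ptgr1, a prostaglandin reductase that acts on the products of Hpgd, was at 340 UPM in principal 12 against 660, 1043 and 1308 in principal 13, 14 and 15, a pooled ratio of 0.367 (0.335 to 0.401). At 1000 UMIs a cell Ptgr1 was found in 26.1% of principal 12 cells and in 46.8%, 64.4% and 63.5% of the others, against 1.10% of immune cells.

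Water and ion transport genes differed less. Fxyd4, a regulator of the sodium pump, was at 3447 UPM in principal 12 and between 2848 and 3003 in the other 3. Aqp2 was at 2692 UPM against 2873, 2872 and 3186. Kcnk5, a potassium channel, was at 82.9 UPM against 48.8 in the other 3 pooled, while Kcnj16, another potassium channel, was at 193 against 228. Of 13 genes compared, 1 was lower and 0 were higher, and the summed ratio of 1.02 changed side when each cell was given the same weight (0.9499) or when Akr1b7 was left out of the denominator (0.987). Abcg2 was lower, at 2887 UPM against 4247, 4155 and 4915, a ratio of 0.651 (0.630 to 0.673). On the apical membrane, Cd24a, a small glycosylated surface protein, was at 1782 UPM against 1338, 1030 and 942.

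Of the metal handling genes, the metallothioneins Mt1 and Mt2, the ferritins Ftl1 and Fth1, and Atox1 had higher levels in principal 12 than in each of the other 3. Mt1 was at 25700 UPM against 17667, 15494 and 11211, a ratio of 1.68 (1.66 to 1.70). Mt2, whose upstream bases are printed above, was at 13807 UPM against 9276, 8071 and 5389, a ratio of 1.75 (1.72 to 1.79). The ferritin genes, which store iron, were also above each population: Ftl1 was at 3458 UPM against 2268 pooled, and Fth1 at 2878 against 2118. Atox1, a copper chaperone, was at 1213 against 946. At 1000 UMIs a cell Ftl1 was found in 93.6% of principal 12 cells and in 78.9% to 80.4% of the others. None of the 12 metal handling genes compared was 2-fold higher and 1 was lower, and 7 had a ratio above 1. The median log2 ratio of the list was 0.33, beside -0.07 over all genes. Stromal cells of the same library had 19247 UPM of Mt1 and 12800 of Mt2, so high levels of these genes were not particular to epithelium.

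Ribosomal protein genes took the largest share of the RNA that differed. The 82 genes of the cytosolic ribosome made up 18.4% of the UMIs of principal 12, against 13.1% in principal 13, 13.7% in principal 14 and 12.6% in principal 15. Of 81 compared, 80 had a ratio above 1, 0 were 2-fold higher, and the median log2 ratio was 0.49. The summed ratios of the mitochondrial ribosome and the respiratory chain were 0.984 and 1.01. Many ribosomal protein genes have processed copies elsewhere in the genome, and reads shared with them were not counted.

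**Figure D3:**
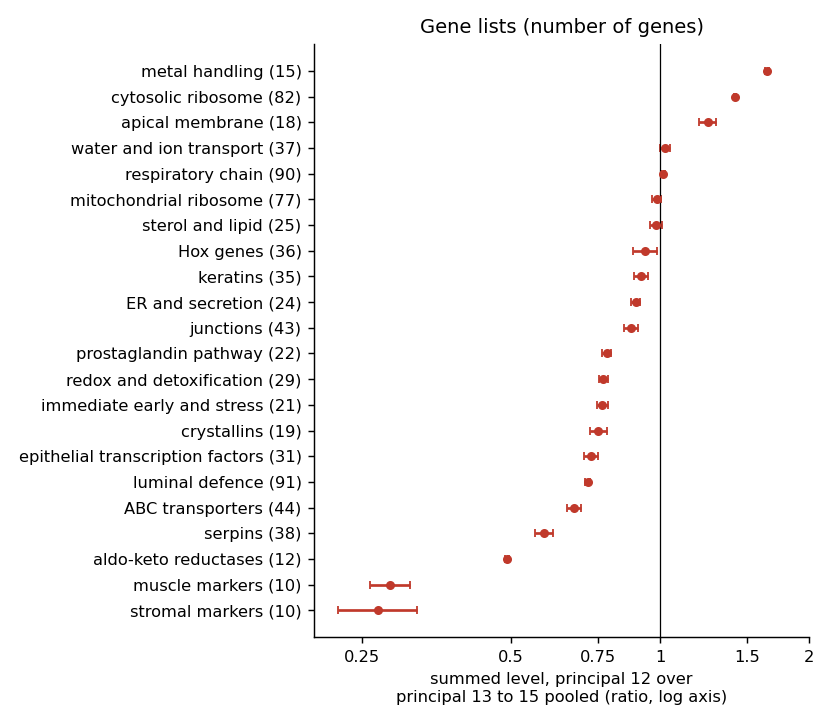
Summed level of each gene list in principal 12 over that in principal 13, 14 and 15 pooled, as a ratio on a log axis with its 95% counting interval, with the number of genes in parentheses. Over cells of all depths, metal handling (1.64) and the cytosolic ribosome (1.41) are the highest, and muscle (0.285) and stromal (0.269) markers the lowest.

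Of 26 genes of luminal defence compared, 6 were lower and 0 were higher (4.22% and 0.59% over all genes), and 7 had a ratio above 1. Crisp1, a protein that coats sperm, was at 20660 UPM in principal 12 against 38619, 26831 and 34390 in principal 13, 14 and 15. Spink8, of a family of protease inhibitors, was at 18336 UPM against 29786, 18431 and 27984, so it was level with principal 14. Serpina1f, a serpin, was 1.74-fold lower at 1431 UPM, and Cst3, a cysteine protease inhibitor, was at 1627 against 2759. Cd52, a small glycopeptide that passes to sperm, differed little, at 21032 UPM against 19915. The beta-defensin Defb43 was at 1321 UPM against 1103.

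Immediate early genes, which code for transcription factors made within minutes of a stimulus, were lower in part. Fos was at 179 UPM in principal 12 against 305, 518 and 661, Jun at 213 against 399, 407 and 509, and Egr1 at 118 against 196, 343 and 340. Ier2 was 2.47-fold lower and Jund was not lower, at 833 against 702 UPM. Of 21 genes compared, 5 were lower and 0 higher (4.22% and 0.59% over all genes), and the summed ratio was 0.764 (0.745 to 0.784). Klf2, a zinc-finger factor, was at 37.1 UPM against 128, 179 and 239. Cited1, a transcriptional coactivator, was at 1279 UPM against 1864, and Id3, an inhibitor of basic helix-loop-helix factors, at 268 against 508. Of 23 epithelial transcription factors compared, 0 were 2-fold apart in either direction. Of 12 Hox genes compared, which mark position along the body axis, 1 was lower and Hoxb9 was at 113 UPM against 82.4.

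Ratios were ranked among genes with at least 50 UMIs in principal 12 or in the other 3 pooled. The 12 largest of these included 2 secreted signals of inflammation. Cxcl1, a chemokine that draws neutrophils, was at 724 UPM in principal 12 against 393, 169 and 197, a pooled ratio of 2.47 (2.25 to 2.70). It was found in 20.5% of principal 12 cells at 1000 UMIs, 15.3% of principal 13, 14.4% of principal 14 and 6.92% of principal 15. The immune cells held it in 39.6% and basal cells in 14.3% (10.8% to 18.4%), and in stromal cells it was at 5097 UPM. The interval of principal 12 (15.5% to 26.3%) overlaps that of basal cells. How much of the Cxcl1 share in principal 12 is ambient was not tested. Csf3, the growth factor of granulocytes, rested on 84 UMIs in principal 12 (48.7 UPM against 19.4). Isg15, a ubiquitin-like protein induced by interferon, had a ratio of 2.23, Maff, a small Maf transcription factor, 2.23, and Tgfa, a ligand of the epidermal growth factor receptor, 2.12. At 1000 UMIs a cell Isg15 was in 3.85% of principal 12 cells and 3.31% of the other 3, below its share in basal (9.91%) and immune (54.9%) cells. Tgfa was in 3.85% and 1.45%, against 6.12% of basal and 1.10% of immune cells. Basal and immune cells may make Cxcl1, Isg15 and Tgfa themselves, so their shares do not set a background. How much of Isg15 or Tgfa in principal 12 is ambient was not tested. Tsacc, Pmvk, Ppp1r14b, Hilpda, Pkig, Ovol1 and Emp1 followed, between 1.90 and 2.10. Hilpda was below 1 with each cell weighted the same (0.893), and Ovol1 was below 1 with cells thinned to at most 1000 UMIs (0.930).

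With the same minimum of 50 UMIs, the genes with the smallest ratios were of another kind. Tpm2, Actg2, Pdlim3, Hspb6 and Pcp4, abundant in muscle or nerve, and Mgp, Sparc, Igfbp6 and Ccl2, abundant in connective tissue, made up 9 of the 12. The summed muscle markers were at 307 UPM in principal 12 against 919 in principal 13, 2484 in principal 14 and 527 in principal 15, and at 115374 in the muscle cells of the library. Stromal markers were at 81.2 UPM against 350, 508 and 101, and at 25184 in stromal cells. They were not lower in deep cells. With 3000 to 8000 UMIs a cell they were at 80.0 UPM against 73.3 in the other 3 pooled. With 8000 or more they were at 43.3 against 22.7. Of 10 muscle markers 9 were called lower, and of 8 stromal markers compared 7 were. The level in vas muscle or stromal cells was compared with that in principal 13, 14 and 15 pooled. It was at least 4-fold higher for 76 of the 336 lower genes (22.6%). The same held for 16 of the 47 higher genes (34.04%) and 600 of all 7970 (7.53%). The part of RNA from these other cells in the lower calls was not tested. With called doublets left out, the stromal markers of principal 12 were at 32.0 UPM. The matching level of the other 3 is not given, so this value does not show whether the gap changed. In cells with at least 3000 UMIs only, Mgp (2.20) and Igfbp6 (1.37) were above 1.

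Summed markers of immune, endothelial, basal and clear cells were lower in principal 12 than in those cells. In those cells of the library they were at 33856, 4821, 4877 and 9065 UPM. How much of the sums in principal 12 came from other cells was not tested. Immune markers were at 9.28 UPM, with Ptprc, Cd3e and Csf1r at 0 among 9, and endothelial markers at 7.54 UPM, with Kdr and Emcn at 0 among 8. Basal cell markers were at 97.4 UPM, with Krt15, Trp63 and Col17a1 at 0 among 10, and between 53.5 and 134 UPM in the other 3. Clear cell markers were at 828 UPM, with 5 of 11 at 0, Foxi1 among them, and between 847 and 868 UPM in the other 3. The blood and sperm markers had 0 UMIs.

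Other groups of epithelial genes had few members that were 2-fold apart, and their counts stand beside 4.22% lower and 0.59% higher over all genes. Of 26 junction genes compared, 1 was higher and 0 lower, with the claudin Cldn4 at 474 UPM against 374 and Cldn3 at 457 against 681. Epcam, an adhesion protein of epithelia, was at 542 UPM against 832. Of 11 keratins, 2 were lower, and the abundant Krt8 and Krt18 were at 1262 against 1383 and 1035 against 1022 UPM. Of 24 genes of the secretory route 0 were 2-fold apart, although Hspa5, the chaperone of the endoplasmic reticulum, was 1.64-fold lower. Of 21 sterol and lipid genes, 1 was higher and 0 lower. Of 23 redox genes, 2 were lower, and Gstm1, a glutathione transferase, was at 929 against 1391 UPM. The summed ratio of the redox genes was 0.768 (0.753 to 0.783). B2m, the light chain of class I antigen molecules, was 1.62-fold lower at 3744 UPM.

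Cartpt, a neuropeptide precursor, had the smallest ratio among genes with at least 50 UMIs (23.8 against 285 UPM, 0.083). However, 1 cell held 72.7% of the Cartpt UMIs of the other 3 populations and 92.4% of those of principal 15. At 4-fold, Ly6d and Zc3h12a were the 2 higher genes, named here after their values were seen. Ly6d, a surface antigen of stratified epithelium, had 26 UMIs in 10 principal 12 cells and 3 UMIs in the other 3 (13.5 times, 4.13 to 69.6), and was at 1587 UPM in the basal cells of the library. Zc3h12a, an RNase that degrades cytokine messages, had 21 UMIs against 8.

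The differences were examined within bands of depth, since principal 12 had deeper cells. This was added after the data had been seen. The bands were cells with under 1000 UMIs, 1000 to 3000, 3000 to 8000, and 8000 or more, which held 108, 76, 44 and 114 principal 12 cells. Mt1 and Mt2 together were above each of the other 3 in 4 of 4 bands, between 38775 and 42077 UPM against 14153 to 27687. The ferritin genes, Crip1 and the cytosolic ribosome were also above in all 4 bands. The ribosome took 25.5%, 23.7%, 19.1% and 17.4% of the UMIs of principal 12 from the shallowest to the deepest band, and 11.7% to 15.8% in the other 3. Akr1b7, Abcg2, Aqp2, Ptgr1, Crisp1 and the immediate early genes were below each of the 3 in all 4 bands. For Aqp2 the interval overlapped that of another population in every band but 1000 to 3000. In the deepest band it was at 2970 UPM against 2994 in principal 14. Abcg2 in principal 12 was at 1299, 1807, 2712 and 3107 UPM from the shallowest to the deepest band. Tgfa was above each only in the deepest band, and below the pool from 1000 to 3000 (7.56 against 18.8 UPM) and from 3000 to 8000 (12.6 against 19.3). The respiratory chain was above each in 2 bands of 4, at 5.21% of UMIs in the shallowest against 3.62%, 4.33% and 4.52%. Cxcl1 was above each in 3 bands of 4 and not in the shallowest (174 UPM against 309 in principal 13). Muscle markers were below each in 1 band of 4, and stromal markers in 0. Against the pool, stromal markers were lower under 1000 UMIs (538 against 1501 UPM) and from 1000 to 3000 (234 against 1104). They were not lower from 3000 to 8000 (80.0 against 73.3) or at 8000 or more (43.3 against 22.7).

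**Figure D4:**
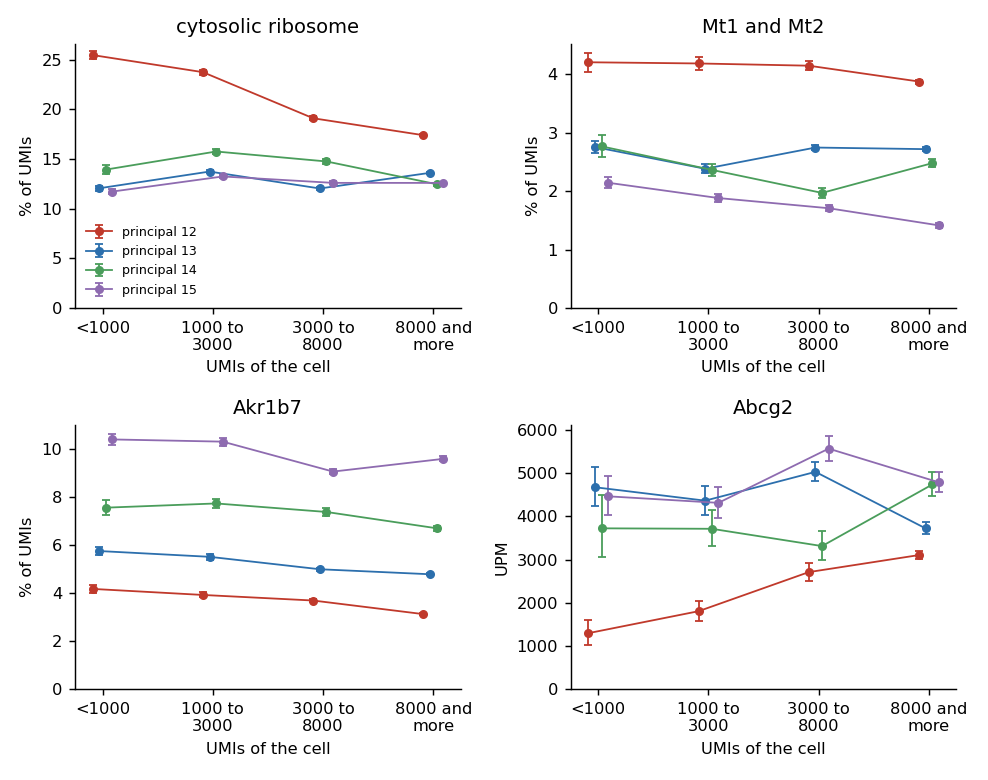
Cytosolic ribosome, Mt1 and Mt2 together, and Akr1b7 as percent of UMIs, and Abcg2 in UPM, within bands of UMIs per cell for principal 12, 13, 14 and 15, with 95% counting intervals. Metallothioneins and the cytosolic ribosome of principal 12 lie above the other 3 in every band, and Akr1b7 lies below them in every band.

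**Figure D5:**
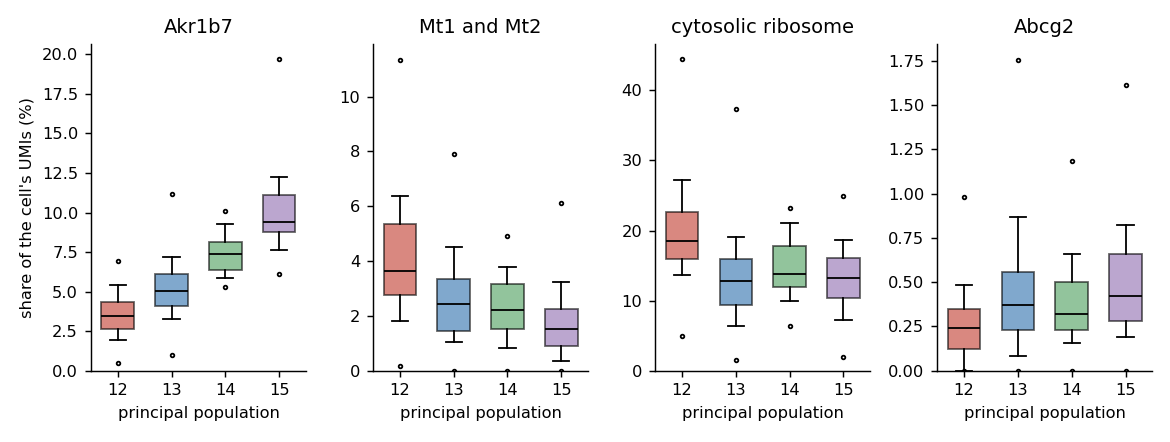
Share of a cell's UMIs in percent, for cells with at least 1000 UMIs of the vas deferens library, by principal population. Boxes span the quartiles around the median, whiskers the 10th to 90th percentile, and points the lowest and highest cell; the median for metallothioneins is 3.65% in principal 12 and 1.52% in principal 15.

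Principal 12 was also set against each population alone. The mean absolute log2 ratio was 0.26 to principal 13, 0.32 to principal 14 and 0.35 to principal 15. Fewer UMIs in a population add counting noise to this measure, and of the 3 principal 13 had the most UMIs and principal 14 the fewest. Against principal 13, 58 of 6860 genes were at least 2-fold higher (0.845%) and 191 lower (2.78%). Against principal 14, 226 of 6570 were higher (3.44%) and 131 lower (1.99%). Against principal 15, 472 of 6583 were higher (7.17%) and 187 lower (2.84%). With ribosomal genes out of the denominator these became 77 and 144, 291 and 102, and 598 and 132, and with Akr1b7 out of it the count against principal 15 was 372 higher and 246 lower. The order of the populations turned with the weight of deep cells. With cells thinned to at most 1000 UMIs, 31 genes were higher and 285 lower against principal 13, 93 and 53 against principal 14, and 100 and 141 against principal 15. With each cell weighted the same, the counts were 232 and 996, 502 and 310, and 745 and 402. No population is therefore named as the nearest.

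Ranked among genes with at least 50 UMIs in either population, the leading genes differed by partner. Against principal 13, Gdpd3 (2.41), Maff (2.12), Tsacc (2.11), Alkbh6 (2.11) and Isg15 (2.10) had the largest ratios, and Mgp (0.149) and Cuzd1 (0.150) the smallest. Against principal 14, Cxcl2, a chemokine of the same kind as Cxcl1, was 8.04 times higher (5.27 to 12.9) and Cxcl1 4.29 times, with Csf3 and Defb11 in between. 5730508B09Rik, an uncharacterised gene, had 51 UMIs in principal 12 and 1 in principal 14 (14.03 times, 2.41 to 565). In the same comparison Pcp4 (0.080), Actg2 (0.083), Mgp (0.092), Tagln (0.100) and Tpm2 (0.108) were lowest. Against principal 15, S100a6, a calcium-binding protein, was 8.004 times higher (4.25 to 17.0), Lpin1, a phosphatidate phosphatase, 7.53 times and Tgfa and Csf3 6.67 times. Tgfa was found in 4 and Csf3 in 5 of the 332 principal 15 cells, so both of these ratios rest on few cells. Klf2 (0.156), the heat shock gene Hspa1a (0.241), Ptgr1 (0.260) and Fos (0.271) were among the lowest there. Defb11 was at 48.1 UPM in principal 12, 52.0 in principal 13, and 6.32 and 8.52 in principal 14 and 15. There were 4 genes at least 2-fold higher than in each of the 3 (Ly6d, Maff, Sephs1 and Zfp944) and 9 at least 2-fold lower (Ccl2, Cebpd, Cnn1, Ggh, Klf2, Mgp, Pcp4, Sin3b and Tpm2), a list named after the values were seen. Ggh, which trims folate, was at 123 UPM against 277, 274 and 338.

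Against the principal cells of the epididymis, 272 of 6565 genes were at least 4-fold higher in principal 12 (4.14%) than the mean of the caput, corpus and cauda libraries. Akr1b7 was at 4.06 UPM in principal cells of the caput, 31.0 in those of the corpus and 124 in those of the cauda, 622-fold lower in the mean. Abcg2 was 320 times higher in principal 12, with 39, 3 and 4 UMIs in the caput, corpus and cauda, and Fxyd4 144 times. Aqp2 had 1, 0 and 13 UMIs there and 4644 in principal 12, Crygc, a lens crystallin, 0, 0 and 16 against 3045, and Kcnj16 0, 11 and 1 against 332, and no fold is given for these because a library was at 0. Akr1cl, Crygb and Ccdc109b had 1, 4 and 3 UMIs in the epididymal libraries and 577, 285 and 251 in principal 12. Eci3, an enzyme of fatty acid oxidation, had 0 there and was at least 53.5-fold higher, with a floor of 3 UMIs for each library.

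Genes of the cauda, the region next to the vas deferens, were looked up in principal 12. The 415 genes with at least 20 UMIs in cauda principal cells and at least 4 times the level of the other 3 vas populations were taken. Of these, 2 were at least 2-fold higher in principal 12 than in the other 3 (0.482%), Crim1 on 26 UMIs and Sprr1a on 34. Of the 415, 113 had the 20 UMIs in principal 12 or the other 3 that a call needs, and without this minimum 19 were at least 2-fold higher. Summed, the list was at 6935 UPM in principal 12, 9195 in principal 13, 6746 in principal 14, 6135 in principal 15 and 175327 in the cauda. The genes were chosen for a low level in the other 3, so a value at or above them was favoured by the choice.

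The genes whose levels were most like those of the markers over the 34 populations are given as a description, by the Pearson correlation of log2(UPM + 10). Populations share libraries and differ in depth. Akr1b7 was most like Aqp2 (0.918), Fxyd4 (0.915) and Fam129a (0.902), and Ptgr1 was in rank 5 (0.884). Abcg2 was most like Eci3 (0.901) and Crygb (0.885), and Aqp2 most like Crygc (0.962), Eci3 (0.952) and Kcnj16 (0.948). The highest population was principal 15 for these except Fxyd4, which was highest in principal 12, and Fam129a, which was highest in principal 14.

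The 4 principal 12 cells from other libraries were not alike. The deepest, from the cauda library, had 4185 UMIs, 94 of Akr1b7, 1 of Aqp2, 0 of Abcg2, 66 of Crisp1 and 1077 of ribosomal protein genes. The other 3, 1 from the caput and 2 from the cauda, had 219, 407 and 308 UMIs and 0 of Akr1b7.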

How the data were processed

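Per the file headers and the study's methods, the authors aligned reads with HISAT2 2.0.4 to mm10 with RefSeq genes, counted UMIs per gene and cell (multi-mapping reads ignored), removed ambient RNA per cell with a modified SoupX, and deposited the UMI counts with a metadata table of each cell's library, cluster and UMI count before that removal. Populations are the authors' annotation. No doublet removal is given in the sources used here.

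Counts were summed over the cells of a population in a library and divided by their total (UPM). Intervals are exact: Poisson for levels, conditional binomial for ratios, Clopper-Pearson for shares (95%). A call needed a ratio of 2 (4 for the epididymal comparison) and 20 UMIs on the higher side; a level below the floor of 3 UMIs was set to it, for the epididymis on the mean of its libraries only. Each region was 1 library, so no test was run. UMI totals of 1724930 in principal 12 put that floor at 1.74 UPM. Named genes are the markers, the list members with 50 UMIs, the 15 highest, the 12 largest and smallest ratios, 5 each way against each population, 10 against the epididymis, and the 5 genes most like each marker. Rankings by ratio took only genes with at least 50 UMIs in either group compared, or in principal 12 for the epididymis. The population, lists and rules were chosen with earlier results of these data known. Doublets were scored against simulated pairs, and the scripts were tested on simulated data. Python 3.11.15, numpy 2.4.6, scipy 1.17.1, pandas 2.3.3 and scikit-learn 1.9.0 were used.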

Additional observations from a re-analysis of the deposited data

Results flagged for a closer look

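Akr1b7 was at 22500 UPM in the deepest principal 12 cell of the cauda library, a cell outside the comparisons, which used cells of the vas deferens library only. It was picked out because principal cells of the cauda library as a whole were at 124 UPM (108 to 142). The value rests on 94 of 4185 UMIs, and its source was not tested.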

How the results depend on the processing

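Values below give the number higher and the number lower against the other 3 pooled, then against principal 13, 14 and 15, then the number higher than the epididymis and the number of cauda genes held. At 1.5-fold (2-fold for the epididymis) they were 314 and 1135, 281 and 921, 719 and 532, 1298 and 649, 1260 and 43. At 4-fold (8-fold for the epididymis) they were 2 and 40, 2 and 18, 7 and 25, 31 and 7, 101 and 0. With a minimum of 10 UMIs, 125 were higher and 602 lower than the pool, 165 and 414 than principal 13, 352 lower than principal 14, 329 lower than principal 15, and 9 cauda genes held. With 50 UMIs they were 10 and 112, 10 and 47, 68 and 48, 184 and 88, and 0 cauda genes. With each cell weighted the same they were 162 and 1067, 232 and 996, 502 and 310, 745 and 402, and 11 cauda genes. With ribosomal genes out of the denominator 71 were higher than the pool, and without principal 13 in it 208. With cells thinned to at most 1000 UMIs, 18 were higher than the pool, 31 than principal 13, 93 higher and 53 lower than principal 14, 100 higher than principal 15, 144 higher than the epididymis and 0 cauda genes held. Fewer UMIs are compared there by construction. For the rest the cause was not tested.

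Akr1b7 was at 37388 UPM with each cell weighted the same and 32670 in cells with at least 1000 UMIs, and with each cell weighted the same Abcg2 was at 2155 and Aqp2 at 2072. The share of cells with Abcg2 was 60.3% at 2 UMIs or more, 57.2% thinned to 500 UMIs and 68.1% with no thinning, and with Aqp2 44.0% at 2 UMIs or more and 47.5% at 500. Water and ion transport changed side with equal cell weights (0.9499) and without Akr1b7 in the denominator (0.987), and the respiratory chain with cells of at least 1000 UMIs (0.996) and without Akr1b7 (0.975). Hilpda changed side with equal weights (0.893), Ovol1 with thinned cells (0.930), and, in an alternative added after the data were seen, Mgp (2.20) and Igfbp6 (1.37) did in cells with at least 3000 UMIs. Of 210 gene ratios under an alternative 206 kept their direction, and of 136 list ratios 128 did. The genes included those with the largest and smallest ratios in these same counts. A kept direction was therefore favoured by the choice of genes, and the tally is no support for the ratios. It also does not cover size. The summed ratio of the cytosolic ribosome was 1.41, and 1.70 with each cell weighted the same. No paired analysis was possible because each region was 1 library. Depth limits levels under the floor of 1.74 UPM, and genes with few UMIs lie within counting error.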
